A study of Mus musculus with 6 samples.

Results

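Cort, Sst, Vip, Npy, Crh, Cck and Tac2 encode precursors of neuropeptides that cortical neurons make. These 7 genes were read from 23366 gene rows of mouse cortical RNA, and all 7 were among the 14385 genes tested. Testing required a level of 0.5 FPKM or more on average over the mice, where FPKM counts sequenced fragments relative to transcript length and library depth. The list was chosen by the group difference of Cort in an earlier look at these same libraries, so the values of Cort are a description and carry no p-value. The other members were listed as peptides of cortical neurons.

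Neuropeptides are cut from larger precursors, stored in dense-core vesicles and released to act on G protein-coupled receptors, often at some distance and for longer than a classical transmitter. In the cortex most of them mark classes of inhibitory interneurons: Sst marks dendrite-targeting cells, Vip marks cells that inhibit other interneurons, and Npy marks neurogliaform and long-range cells. Cort is found in part of the Sst and parvalbumin cells, Crh and Tac2 in subsets of interneurons, and Cck both in basket cells and in many pyramidal neurons. Transcription of several of these genes is driven through the cAMP response element, the motif bound by CREB.

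One library per mouse was made from frontal cortical tissue of 6 C57BL/6 mice, 3 of them microglia-depleted (A4, A5 and A6) and taken at d10 after depletion, and 3 of them littermate controls (A1 to A3), described as matched for age and sex. All 6 mice were CX3CR1-CreERT2+/- and received tamoxifen (TAM). Depleted mice were also iDTR+/-, with an inducible diphtheria toxin receptor, and were then given diphtheria toxin (DT), whereas controls lacked iDTR. It is not stated for these libraries whether the control mice received DT, so an effect of the toxin and the loss of microglia cannot be told apart. Cre was driven by the CX3CR1 promoter, which is active in microglia and in other myeloid cells, and in tissue at d10 the summed level of 7 microglial markers was 85.9 to 102.7 FPKM in control and 91.3 to 122.5 FPKM in depleted mice. The p-values below measure the spread between these 6 mice.

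The libraries differed in depth and in make-up. The spacing of low FPKM values gave about 14.5, 20.6 and 18.2 M fragments for A1, A2 and A3, and 13.8, 3.57 and 11.2 M for A4, A5 and A6. A4 stood apart: it had the lowest limma array weight (0.304, against 0.685 to 2.44), Gfap at 300.3 FPKM against 64.5 to 120.1 in the other mice, and Egr1 at 302.6 against 57.3 to 87.0. Summed transcripts of 4 Y-linked genes reached 5.56 FPKM in A4 and at most 0.16 in the others, although Xist was 30.9 FPKM in A4, and Xist was 4.74 FPKM in A3 against 30.9 to 46.7 elsewhere. The tissue labelled cortex held Slc17a7 (325.0 to 383.3 FPKM), which marks cortical excitatory neurons, but also 8 of 8 striatal markers, summing to 238.7 to 286.6 FPKM in every mouse. Hypothalamic markers were present as well, so the region that a peptide transcript came from cannot be told apart.

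Cort and Sst are related genes, and the sequences below show how alike their active ends are. A stretch of 14 codons, which ends the coding sequence in Sst and stops 1 codon before its end in Cort, holds the core through which both peptides bind somatostatin receptors. It is given 5′ to 3′ from GENCODE M21 transcripts, with the bases that differ in capitals.
Cort: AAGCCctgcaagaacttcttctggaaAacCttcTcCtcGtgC
Sst: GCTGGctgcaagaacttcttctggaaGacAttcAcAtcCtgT
Of the 42 bases 31 were identical (73.8%), the longest identical run was 21 bases, and 11 of 14 encoded residues were the same. No window of 75 bases, the read length, in the transcript of any of the 7 genes occurred in another gene, so reads of Cort and Sst could be kept apart.

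Cort lies on chromosome 4, from 149125034 to 149126763 on the minus strand of GRCm38 (GENCODE M21), and its transcript is 677 bases long. Sst lies on chromosome 16, from 23889573 to 23890958, also on the minus strand. No annotated gene overlaps any of the 7. Bases before the RefSeq start site (GRCm38.p6) are shown for the 4 genes whose 300-base promoter held TGACG, the core of the cAMP response element, on either strand. Capitals mark this core, or in Sst the full palindrome TGACGTCA, in which overlapping cores lie on both strands.
Cort, chr4:149126764-149126863, minus strand: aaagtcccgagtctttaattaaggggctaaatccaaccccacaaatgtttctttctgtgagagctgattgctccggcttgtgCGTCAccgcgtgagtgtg
Sst, chr16:23890874-23890903, minus strand: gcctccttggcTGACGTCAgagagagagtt
Vip, chr10:5639118-5639217, plus strand: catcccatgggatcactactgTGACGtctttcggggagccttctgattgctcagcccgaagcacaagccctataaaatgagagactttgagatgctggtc
Cck, chr9:121495695-121495794, minus strand: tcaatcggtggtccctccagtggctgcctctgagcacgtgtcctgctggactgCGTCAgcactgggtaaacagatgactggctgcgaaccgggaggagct
The promoters of 6 of the 7 genes were found by symbol, all but that of Crh. The core was in 4 of the 6, against 20.8% of 32851 RefSeq promoters of the same length, and the palindrome was in Sst alone, against 1.79%. The first base of the core lay at -18 from the start site in Cort, -79 in Vip and -47 in Cck, and the palindrome began at -48 in Sst. For Cort, Vip and Cck the RefSeq start site was also the start of the GENCODE gene. For Sst it was at 23890844, which is 114 bases inside the GENCODE gene, so the palindrome lies before the RefSeq start but within the first exon of the GENCODE transcript, and only 30 bases are shown. Npy and Tac2 had no match in this window.

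Cort encodes cortistatin, a peptide that binds the somatostatin receptors and is known for its effect on slow-wave sleep. Among controls it stood at 7.41 (A1), 10.75 (A2) and 8.59 FPKM (A3). Among depleted mice it stood at 0.58 (A4), 3.36 (A5) and 2.13 FPKM (A6). Every depleted mouse was below every control mouse, and A4 was the lowest of all. The means were 8.92 ± 1.69 FPKM in control and 2.02 ± 1.39 FPKM in depleted mice (SD, n = 3 each), a 4.41-fold ratio. The lowest control mouse was 2.21-fold above the highest depleted mouse. On the log2(FPKM + 1) scale, which understates the change of low genes, depleted mice were lower by a difference of -1.82, and by -1.41 without A4.

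The counting error of Cort was large in the depleted mice, because few fragments stood behind the values. About 73, 150 and 106 fragments were estimated in A1, A2 and A3, and about 5, 8 and 16 in A4, A5 and A6. Exact Poisson 95% intervals ran from 5.81 to 9.32, 9.10 to 12.6 and 7.05 to 10.4 FPKM in the control mice. They ran from 0.174 to 1.25 FPKM in A4, from 1.43 to 6.52 in A5 and from 1.20 to 3.42 in A6. The interval of A5, the shallowest library, overlapped that of control A1, and the intervals of A4 and A6 lay below all control intervals. These intervals cover counting error only. They rest on the estimated depth of each library and on an annotated length that may differ from the one the authors used. Were A5 deeper than the estimated 3.57 M fragments, its interval would be narrower and might not reach that of A1.

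**Figure D1:**
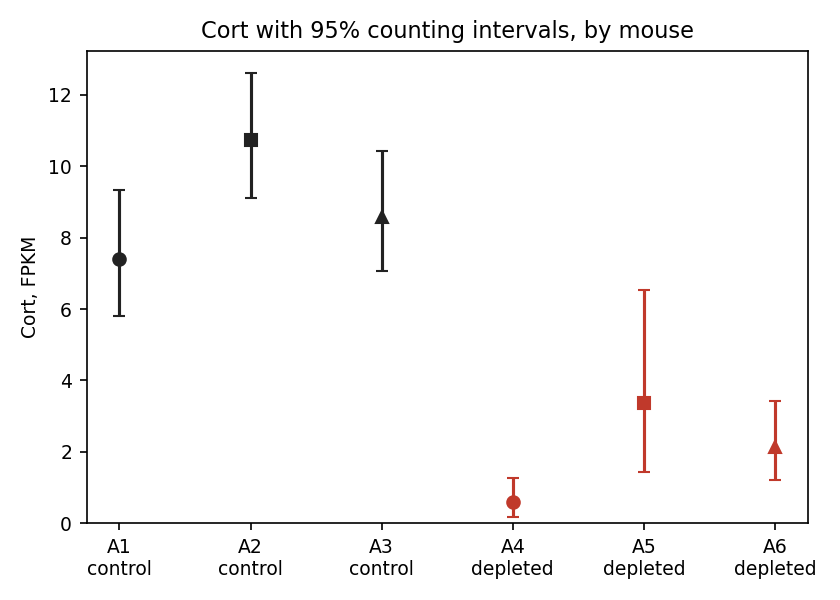
Cort in FPKM (vertical axis, from 0) for each control (black) and depleted (red) mouse, with exact Poisson 95% counting intervals from the estimated fragments as bars. The control mice sat between 7.41 and 10.75 FPKM and the depleted mice between 0.58 and 3.36. At the estimated depths only the interval of A5 reached into that of a control mouse, A1.

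Ratios of Cort to other members within a mouse hold the same Cort values, so they too are a description and no separate support. Cort was above Crh in every control mouse, by ratios of 2.19, 2.98 and 2.28, and below it in every depleted mouse, at 0.426, 0.836 and 0.577. For each unit of Cort there were 39.1, 23.4 and 31.5 units of Sst in A1, A2 and A3, and 316.8, 72.4 and 113.2 in A4, A5 and A6. The genes beside Cort on the chromosome were read as well. Dffa, which encodes the inhibitor of a caspase-activated nuclease and lies 4386 bases away, was at 19.03, 19.57 and 19.19 FPKM in control and 13.63, 14.92 and 20.1 in depleted mice (log2 difference -0.25, limma adjusted p = 0.540). Cenps, a kinetochore protein gene listed as Apitd1 and 357 bases away, had a log2 difference of -0.23 (limma adjusted p = 0.688), with overlapping groups.

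Markers of other tissues and cell types were read beside Cort. All 7 choroid plexus markers were lower on average in depleted mice. For 2 of them every depleted mouse was below the controls, against 9.38% of all genes. Their sum was 169.3 to 326.2 FPKM in control and 46.9 to 71.9 in depleted mice, with none at 0 in any mouse. Most of this sum was Ttr, at 160 to 314 FPKM in control and 40.9 to 64.3 in depleted mice (log2 difference -1.91, limma adjusted p = 0.151). All 6 oligodendrocyte markers were lower on average, 4 of them with every depleted mouse below the controls, against 9.38% of all genes. They summed to 2880 to 3130 FPKM in control and 2521 to 2590 in depleted mice, none at 0. Of 11 hypothalamic markers 8 were tested, 4 higher and 4 lower on average, and their sum was 103.9 to 477.8 FPKM in control and 119.1 to 152.8 in depleted mice. The highest sum came from Pomc at 269.0 FPKM in A3, and without Pomc the sums were 103.1 to 208.8 and 115.7 to 149.7 FPKM. Of the 8 tested, every depleted mouse was below the controls for 1, Hcrt (log2 difference -1.06), and above them for 2, against 9.38% and 8.21% of all genes. The highest was Agrp at 1.42, which was near 0 FPKM in control mice. Agrp, Ghrh and Otp were at 0 in some mouse. On average lower in depleted mice were also 6 of 8 striatal, 3 of 4 hippocampal and 4 of 6 thalamic markers. So were 3 of 3 tested olfactory bulb markers and 5 of 6 astrocyte markers. The median log2 difference over all genes tested was -0.0085, so lower on average was also the more common direction there. Medians were -0.17 for striatal, -0.26 for hippocampal, -0.21 for thalamic, -0.17 for olfactory bulb and -0.14 for astrocyte markers. Without A4 they were, in this order, 0.059, -0.29, -0.074, -0.080 and -0.075, so the sign of the striatal median rested on A4. Of the microglial markers 4 of 7 were higher, and of the endothelial markers 4 of 5. The part of these tissues and cells in the Cort values was not tested.

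Sst encodes somatostatin, which dampens the release of transmitters and hormones. Controls had 289.7 (A1), 251.7 (A2) and 270.9 FPKM (A3), and depleted mice had 183.8 (A4), 243.2 (A5) and 241.1 FPKM (A6). All depleted values were below all control values, A5 and A6 narrowly and A4 by far more. The means were 270.8 ± 19.0 and 222.7 ± 33.7 FPKM (SD, n = 3 each). The log2 difference was -0.29 (SE 0.12, 95% interval -0.55 to -0.027), with a p-value of 0.0346 in the limma fit across all genes and an adjusted p of 0.448, so Sst did not pass the threshold of 0.1. Without A4 the difference was -0.16 (limma adjusted p = 0.412).

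Cck encodes cholecystokinin, among the most abundant peptides of the cortex. It was at 316.7, 347.6 and 330.6 FPKM in control and 275.5, 290.5 and 342.8 FPKM in depleted mice. A4 and A5 were below all control mice and A6 was among them. The means were 331.6 ± 15.5 and 302.9 ± 35.3 FPKM, and the log2 difference was -0.14 (SE 0.091, 95% interval -0.34 to 0.073, limma adjusted p = 0.622). It was -0.071 without A4 and -0.23 without A6.

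Crh encodes corticotropin-releasing hormone, the peptide that starts the stress hormone cascade in the hypothalamus and that acts locally in the cortex. Its levels were 3.38, 3.61 and 3.77 FPKM in controls, against 1.36, 4.02 and 3.69 FPKM after depletion. A4 alone was low, and A5 was above every control mouse. The means were 3.59 ± 0.196 and 3.02 ± 1.45 FPKM, with a log2 difference of -0.26 (SE 0.27, 95% interval -0.87 to 0.34, limma adjusted p = 0.746). Without A4 the sign turned, to 0.082, and the difference was -0.46 without A5 and -0.41 without A6.

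Vip encodes vasoactive intestinal peptide, which raises cAMP through its receptors. Its levels were 25.1, 26.4 and 24.4 FPKM in controls (25.3 ± 0.990, SD, n = 3) and 24.6, 32.2 and 28.8 FPKM after depletion (28.5 ± 3.80). A5 and A6 were above every control mouse and A4 was among them. The log2 difference was 0.16 (SE 0.10, 95% interval -0.080 to 0.40, limma adjusted p = 0.614). It was 0.072 without A5 and 0.26 without A4.

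Npy encodes neuropeptide Y, which reduces glutamate release and promotes feeding. Its levels were 90.8, 113.1 and 92.5 FPKM in controls (98.8 ± 12.4, SD, n = 3) and 103.6, 103.4 and 106.6 FPKM after depletion (104.5 ± 1.75). All depleted values lay within the control range. The log2 difference was 0.088 (SE 0.092, 95% interval -0.12 to 0.30, limma adjusted p = 0.756), and it was 0.19 without A2, 0.031 without A1 and 0.044 without A3.

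Tac2 encodes neurokinin B, a tachykinin. Its levels were 15.2, 9.58 and 14.5 FPKM in controls (13.1 ± 3.05, SD, n = 3) and 17.8, 14.8 and 14.4 FPKM after depletion (15.7 ± 1.84). A2 was the lowest mouse and A4 the highest, and the other 4 lay between 14.4 and 15.2 FPKM. The log2 difference was 0.26 (SE 0.17, 95% interval -0.12 to 0.64, limma adjusted p = 0.610). It was 0.068 without A2 and 0.17 without A4.

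**Figure D2:**
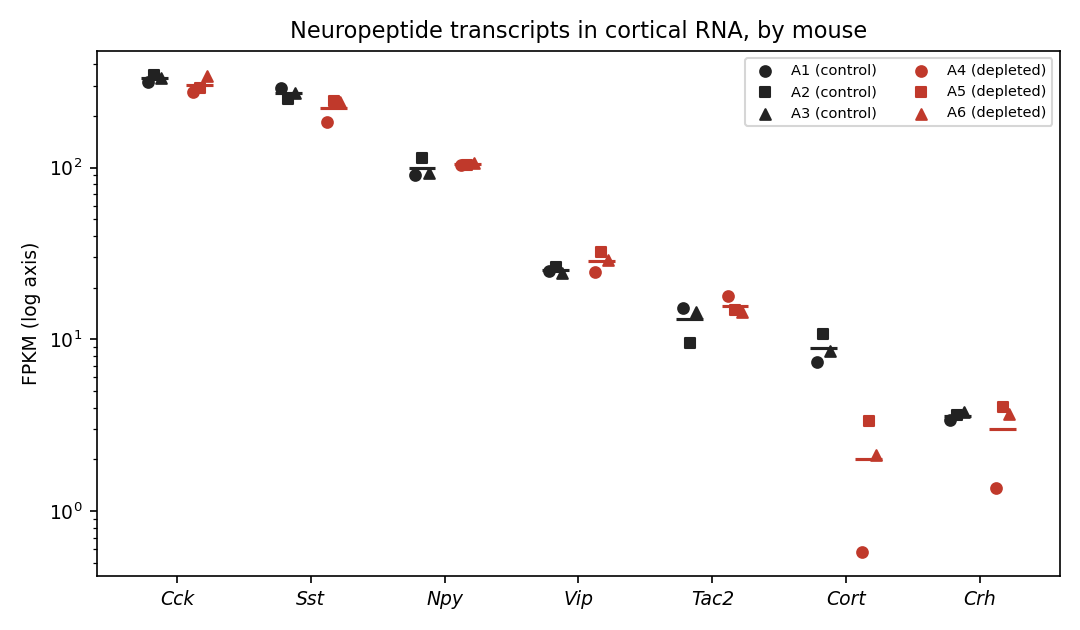
FPKM of the 7 neuropeptide genes (log axis) in each control (black) and depleted (red) mouse, with horizontal lines at the group means. Cck, Sst, Npy and Vip kept this order in every mouse, while Cort lay near Tac2 in control mice and below Crh in all 3 depleted mice.

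The order of levels was Cck, Sst, Npy and Vip in each of the 6 mice, with no overlap between neighbours in either group. Below Vip, Tac2 was above Cort in A1 and A3 and below it in A2, so these neighbours were not apart in control mice, and both were above Crh. In depleted mice Tac2 was above Crh and Crh above Cort in each mouse, although the ranges of Crh and Cort across mice overlapped. Together the 7 genes summed to 748.3, 762.7 and 745.1 FPKM in control and 607.2, 691.4 and 739.4 in depleted mice. Cck, Sst and Npy made up 92.1% to 93.4% of this sum in every mouse.

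Of the 6 genes other than Cort, 0 passed an adjusted p of 0.1, where 4 of 14385 genes did (0.0278%), and 0 passed in each of 16 alternative analyses. At an unadjusted p under 0.05 there was 1 of 6, Sst, where 10.5% of all genes passed, 5.74% lower and 4.79% higher in depleted mice. The depleted mice were all below the controls for 2 of 7 genes, Cort and Sst, against 9.38% of all genes, and all above for 0 of 7, against 8.21%. The count of 2 includes Cort, which brought the list about. Over the 6 genes other than Cort the median log2 difference was -0.024, against -0.0085 over all genes tested. In bulk tissue, fewer cells of a type and less RNA per cell cannot be told apart.

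**Figure D3:**
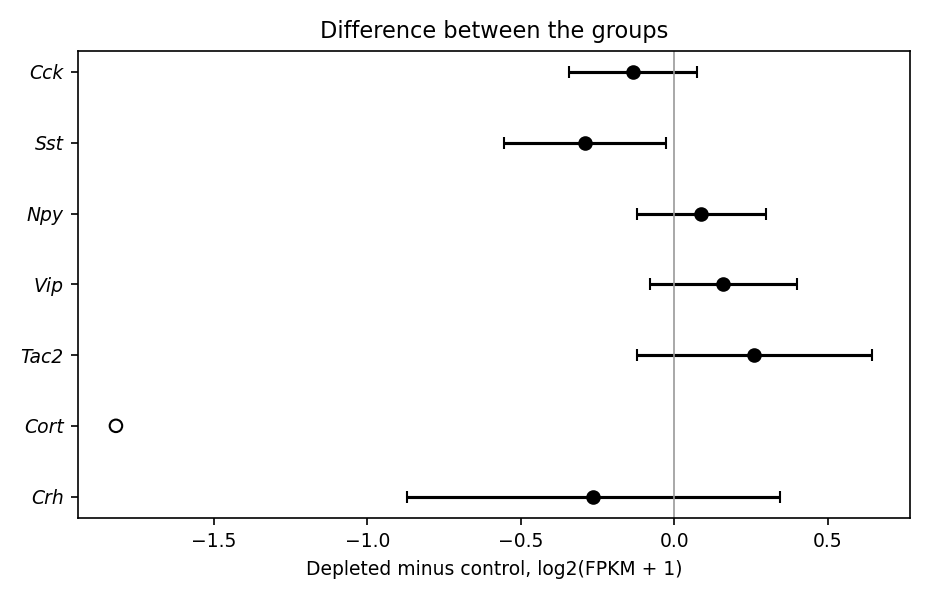
Difference between depleted and control mice on the log2(FPKM + 1) scale (horizontal axis) for the 7 genes, with 95% intervals from the limma fit as bars and Cort as an open point without an interval. The interval of Sst alone lay on one side of 0, from -0.55 to -0.027, and Cort stood at -1.82.

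A4 gave the most extreme deviation for several members. Relative to the control mean of log2(FPKM + 1), A4 was at -2.64 for Cort, -0.96 for Crh, -0.55 for Sst, -0.27 for Cck and 0.44 for Tac2. For Cort the other depleted mice were also low, at -1.17 in A5 and -1.65 in A6. For Sst they were at -0.15 and -0.16, and for Crh at 0.13 and 0.033.

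Base composition moved with the groups. By GC content of the transcript, the median log2 difference was -0.0006 up to 40%, and 0.029 over 40% and up to 45%. It was 0.030 over 45% and up to 50%, -0.0070 over 50% and up to 55%, and -0.16 over 60%. Among the 2702 tested genes whose transcript had a GC content over 55% and up to 60%, the median log2 difference was -0.067, and Cort (58.5%), Sst (56.0%) and Cck (57.0%) fall in this range. After the median of each GC range was taken out of each mouse, an alternative chosen after seeing the data, the differences were -1.75 for Cort, -0.22 for Sst (limma adjusted p = 0.574) and -0.065 for Cck (limma adjusted p = 0.849).

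By the root mean square distance between centred log2(FPKM + 1) profiles over the 6 mice, the 5 genes most like Cort were 0610010B08Rik (0.38), Cox7a1 (0.45), Gm11127 (0.46), Oaz1-ps (0.48) and Mia (0.51). In the same order their log2 differences were -1.61, -1.03, -0.99, -1.96 and -1.83. Like Cort, each had its lowest value in A4, which their selection by distance to Cort favours. Among 14384 other genes, Crh ranked 268 (distance 0.80) and Sst 594 (0.85), Cck ranked 2709, and Npy (8607), Vip (8632) and Tac2 (13502) were further away. A gene that is low in A4 alone can also lie near Cort by this measure, as Crh does.

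Cortistatin and somatostatin act through Sstr1 to Sstr5, and the receptors differed among themselves. Sstr4 was at 4.38, 3.47 and 3.67 FPKM in control and 2.59, 2.21 and 1.59 in depleted mice. Every depleted mouse was lower, and A6, not A4, was the lowest. Its log2 difference was -0.64 (SE 0.16, limma adjusted p = 0.370), short of the threshold. Sstr1, Sstr2 and Sstr3 had overlapping groups and log2 differences of -0.0040, -0.051 and -0.043 (limma adjusted p = 0.991, 0.932 and 0.915). Sstr5 was below the minimum level for testing, at 0.21, 0.09 and 0.40 FPKM in control and 0.47, 0.76 and 0.31 in depleted mice.

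Of 21 genes for peptide receptors and the CRH binding protein, 16 were tested and 0 passed the adjusted threshold, with 3 lower and 0 higher at an unadjusted p under 0.05, against 5.74% and 4.79% of all genes. These 3, Sstr4, Crhr1 and Tacr3, were also the 3 whose depleted mice were all below the controls, against 9.38% of all genes, and the latter pair was picked for naming after the values were seen. Crhr1, the main CRH receptor, was at 10.4, 10.6 and 11.9 FPKM in control and 4.72, 8.28 and 8.79 in depleted mice (log2 difference -0.57, SE 0.20, limma adjusted p = 0.396). Tacr3, the receptor of neurokinin B, was at 1.44, 1.15 and 1.41 FPKM in control and 0.57, 1.04 and 0.80 in depleted mice (log2 difference -0.38, limma adjusted p = 0.466). The highest difference in this list was that of Vipr2, a VIP receptor, at 0.25 with overlapping groups, and the median was -0.047.

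**Figure D4:**
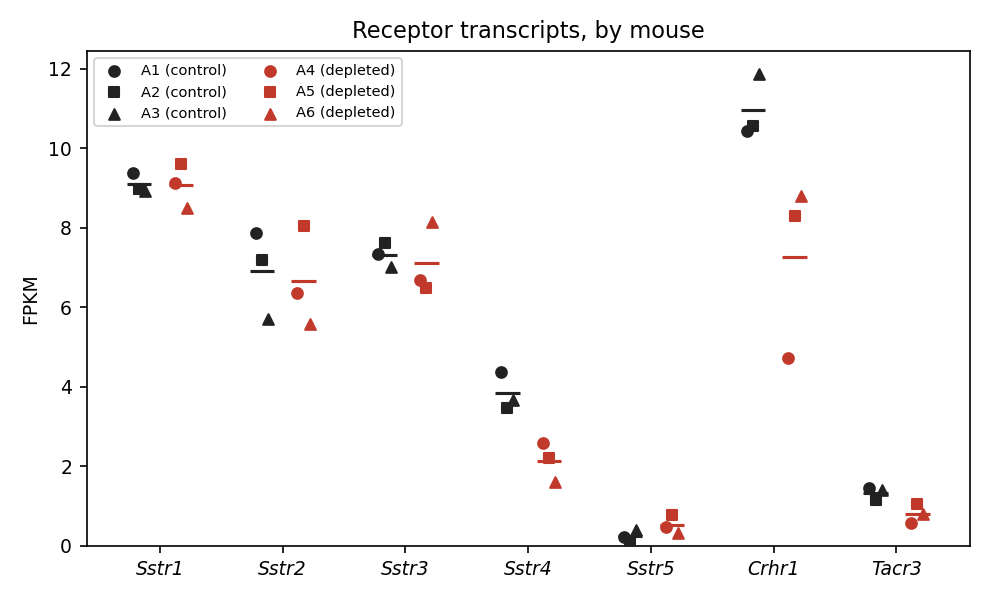
FPKM (vertical axis, from 0) of the 5 somatostatin receptor genes, Crhr1 and Tacr3 in each control (black) and depleted (red) mouse, with horizontal lines at the group means. Sstr4, Crhr1 and Tacr3 had every depleted mouse below every control mouse, while Sstr1, Sstr2, Sstr3 and Sstr5 overlapped.

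Other peptides of cortical neurons were read from the same fit. Of 13 genes 12 were tested and 0 passed the adjusted threshold, with 2 lower (5.74% of all genes) and 0 higher (4.79%) at an unadjusted p under 0.05 and a median of -0.054. Grp, gastrin-releasing peptide, was at 10.7, 9.03 and 7.03 FPKM in control and 4.59, 4.85 and 7.28 in depleted mice (log2 difference -0.60, limma adjusted p = 0.380). Nmb, neuromedin B, was the other of the 2 and was named after its value was seen (log2 difference -0.44, limma adjusted p = 0.419). It was the 1 gene of the list with every depleted mouse below the controls, against 9.38% of all genes. Vgf, a secreted precursor induced by neuronal activity, was highest at 0.15, with 176.4 FPKM in A4 and 69.6 to 95.4 in the other mice.

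The genes for cutting and storing these peptides were examined next. All 16 genes of peptide processing and dense-core vesicles were tested, 0 passed the adjusted threshold, with 1 higher (4.79% of all genes) and 1 lower (5.74%) at an unadjusted p under 0.05, and the median log2 difference was -0.042, or 0.016 without A4. Pcsk1n, an inhibitor of the convertase that cuts peptide precursors, was at 270.9, 216.6 and 253.9 FPKM in control and 189.2, 206.8 and 164.1 in depleted mice (log2 difference -0.40, SE 0.11, limma adjusted p = 0.370). Every depleted mouse was lower. Scg5, a helper of the convertase Pcsk2, was highest at 0.25 (limma adjusted p = 0.451), and its groups overlapped.

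Genes of the interneurons themselves were also read, with no comparison to the size of Cort, which was chosen for its difference. Of 32 genes 31 were tested and 0 passed the adjusted threshold, with 1 higher (4.79% of all genes) and 3 lower (5.74%) at an unadjusted p under 0.05, and a median of -0.069 that became 0.016 without A4. The GABA-synthesizing enzymes Gad1 and Gad2 had log2 differences of 0.056 and 0.014, and the vesicular GABA transporter Slc32a1 had -0.24 (limma adjusted p = 0.792, 0.959 and 0.513). Pvalb, which marks fast-spiking basket cells, and Lhx6, a factor of Sst and Pvalb cells, had 0.060 and -0.10 (limma adjusted p = 0.906 and 0.877). Nos1 and Chodl, markers of long-range cells that hold Sst and Npy, had -0.0048 and 0.31 (limma adjusted p = 0.991 and 0.602), and for Chodl the depleted mice were all above the controls, at levels from 0.73 to 1.32 against 0.31 to 0.72 FPKM. The highest of the list was Htr3a, a serotonin receptor of Vip and neurogliaform cells, at 0.34, and the lowest was Ndnf, a marker of neurogliaform cells, at -0.43 (limma adjusted p = 0.447 and 0.432).

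Of 14 pyramidal neuron genes all were tested and 0 passed the adjusted threshold, with 0 higher (4.79% of all genes) and 2 lower (5.74%) at an unadjusted p under 0.05. The median was -0.083, and -0.0031 without A4. Nrgn, a calmodulin-binding protein of excitatory synapses, was at 841.9, 986.7 and 919.2 FPKM in control and 645.4, 750.4 and 788.2 in depleted mice (log2 difference -0.33, limma adjusted p = 0.378), with no overlap. Neurod2, a factor of excitatory neurons, was highest at 0.28 (limma adjusted p = 0.517).

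Of 15 genes of the CREB family and of activity-regulated genes, 0 passed the adjusted threshold, with 0 higher (4.79% of all genes) and 1 lower (5.74%) at an unadjusted p under 0.05. Their median was 0.076, and -0.17 without A4. Egr1, an immediate early gene, was highest at 0.56 (limma adjusted p = 0.723) through A4, in which Fos was also at 40.7 FPKM against 8.75 to 13.3 in the other mice. Bdnf, a neurotrophin, was lowest at -0.29 (limma adjusted p = 0.509). A4 was the highest of the 6 mice for Fos, Fosb, Junb, Egr1, Nr4a1 and Arc, though not for Npas4, and the lowest for Cort, Crh and Sst, and the part of the former in the latter was not tested.

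**Figure D5:**
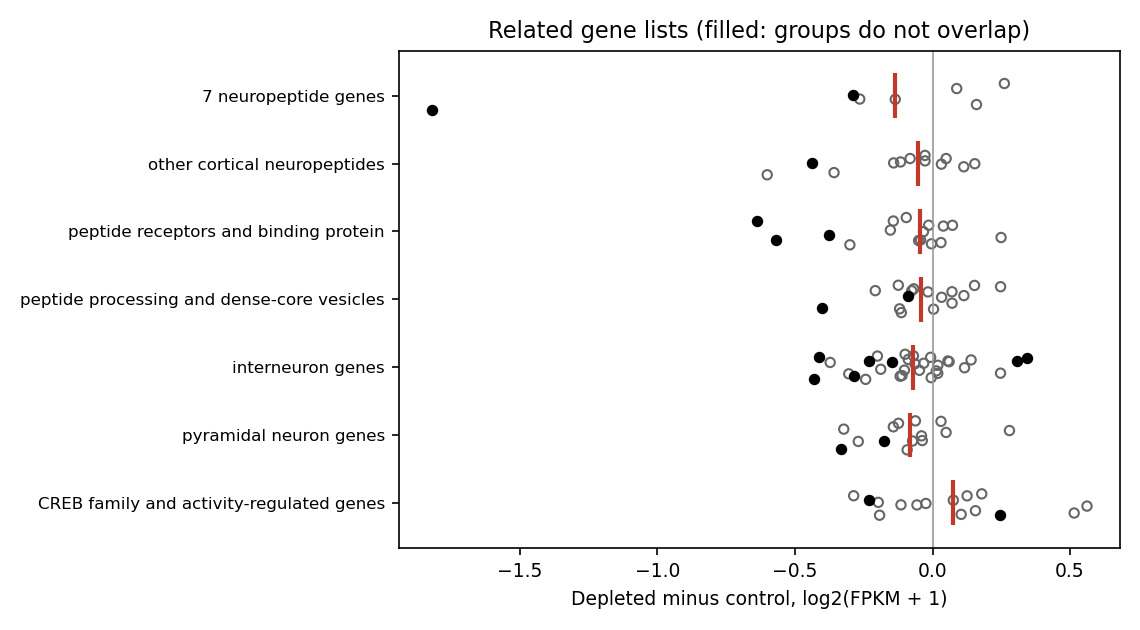
Difference between depleted and control mice on the log2(FPKM + 1) scale (horizontal axis) for each tested gene of the 7 neuropeptide genes and of 6 related lists, 1 point per gene, filled where the groups do not overlap, with red bars at the medians. Cort, which was chosen for its difference, lies at -1.82, and the lowest gene of the 6 lists was Sstr4 at -0.64. Genes not drawn here lay as low as Cort, such as Ttr at -1.91 and Oaz1-ps at -1.96.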

How the data were processed

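Poly(A) libraries of 6 mice were sequenced as 75 bp paired-end reads. The authors aligned them with TopHat (mm9 per the submitters' processing notes), quantified genes with RSEM and deposited FPKM values scaled between libraries by TMM and rounded to 2 decimals. Versions are not given in the sources used here. All 23366 genes were read, and log2(FPKM + 1) of the 14385 with a mean of at least 0.5 was fitted with limma 3.58.1 (eBayes with trend, Benjamini-Hochberg over all genes tested, threshold 0.1). The fit was tested on simulated data. Raw counts were not used here, and 3 mice against 3 give no exact permutation p below 0.1. The members and lists were chosen with earlier results of these data known. Named beside the members were the highest and lowest gene of each list, Sstr1 to Sstr5, 7 interneuron genes, neighbours of Cort and the 5 profiles nearest to Cort. Crhr1, Tacr3, Nmb, Slc17a7, Gfap, Xist, the hypothalamic markers and the immediate early genes other than Egr1 were added after their values were seen. Depth came from the spacing of low values in 2969 single-transcript genes. The largest error was 0.396% in simulations that used the same transcript lengths as the estimate. That figure does not cover lengths that differ from those of the authors, or a depth off by a whole multiple in the real libraries. Transcript GC was matched for 90.4% of the genes tested. Alternatives changed the pseudocount, filter, scaling, variance model and GC correction, or left out 1 mouse.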

Additional observations from a re-analysis of the deposited data

How the results depend on the processing

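No paired analysis was possible because the groups share no replicate numbers. Across 16 alternatives, including the GC correction chosen after seeing the data, Cort was lower in depleted mice throughout (-2.36 to -1.41), and 0 of the other 6 genes passed the threshold in any. Sst ranged from -0.36 to -0.16, Vip from 0.072 to 0.26, Npy from 0.031 to 0.19, Cck from -0.23 to -0.065 and Tac2 from 0.068 to 0.37. Crh ranged from -0.46 to 0.082, the latter without A4, the only reversal among the 7. The number of genes passing over the whole table was 2 with no filter, 2 without the trend, 20 with array weights, and 2 to 29 when 1 mouse was left out, with 2 without A1, 8 without A6 and 29 without A5. Leaving out 1 mouse moved the median of the other neuropeptides between -0.23 (without A2) and -0.031, of the receptors between -0.10 and -0.024, of the processing genes between -0.074 and 0.016, and of the CREB and activity genes between -0.17 (without A4) and 0.17. Scaling to Gad1, Gad2 and Slc32a1 gave 0.0049 for the receptors and 0.017 for the processing genes, and moved the median of all genes to 0.042. The cause was not tested. At the estimated depths few fragments of Cort, about 5, 8 and 16, stood behind its values in the depleted mice, which sets their wide counting intervals.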
